A study of Mus musculus with 11 samples.

Results

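The genes described here encode the proteins that coat lipid droplets or build them: the 5 perilipins Plin1, Plin2, Plin3, Plin4 and Plin5, the fusion protein Cidec, and the droplet-forming proteins Fitm2 and Bscl2. They were chosen by symbol, and all 8 were present among the 12787 genes of the deposited table. RNA was sequenced from gonadal white adipose tissue of 11 male C57Bl6/J mice fed a 60% fat diet for 20 weeks. The 5 mice of the HFD group received this diet alone (labelled vehicle), and the 6 mice of the HFD + IMC group received it with 0.06% (w/w) iodomethylcholine (IMC), an inhibitor of the bacterial enzyme that releases trimethylamine from choline in the gut. Each library was made from 1 mouse, no mouse carried a genetic modification according to the sources used here, and there was no lean control group. Values are log2 CPM (CPM being the reads of a gene as a share of the scaled total of its library), so that a difference of 1 is a doubling of a gene's share of the reads.

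A lipid droplet is a core of triglyceride and sterol ester under a single layer of phospholipid, into which coat proteins insert from the cytosol or from the endoplasmic reticulum. Perilipins decide how easily lipases reach the core. Plin1 and Plin4 are the perilipins of fat cells, Plin5 that of tissues that burn fat, and Plin2 and Plin3 are made in most cells, with Plin2 the main coat of droplets in macrophage foam cells and liver. Cidec (also called Fsp27) sits where droplets touch and passes lipid from the smaller to the larger one, which gives white fat cells their single large droplet. Fitm2 and Bscl2 (seipin) act in the membrane of the endoplasmic reticulum, where droplets bud, and loss of seipin causes congenital lipodystrophy.

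With IMC, 6 of the 8 genes were higher and 1 was lower. Plin1, Plin4, Plin5, Cidec, Fitm2 and Bscl2 rose between 1.52-fold and 2.08-fold, and in each of them the lowest HFD + IMC mouse lay above the highest HFD mouse. Plin3 fell to 0.902 of its HFD level, and Plin2, at 0.846 of its HFD level, did not pass the test. Over all genes tested by limma, an adjusted p below 0.05 was reached upward by 20% and downward by 21%, and 12.5% and 10.5% separated the groups upward and downward with no overlap. The median log2 fold change was 0.84 over the 8 genes and -0.03 over all genes.

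The 8 genes lie on 6 chromosomes, and 3 perilipin genes are neighbours on chromosome 17. By RefSeq on the mouse assembly GRCm38 (mm10), Plin4 (chr17:56100587-56109948) and Plin5 (chr17:56111597-56117606) are separated by 1648 bases with no protein-coding gene between them, and Plin3 (chr17:56278962-56290511) lies 161.355 kb further on, past 7 protein-coding genes. All 3 are read from the minus strand, as are Plin1 (chr7:79721164-79732904), Plin2 (chr4:86626910-86670217), Cidec (chr6:113424634-113435760) and Fitm2 (chr2:163468703-163472629). Bscl2 (chr19:8837467-8848683) is read from the plus strand. Plin4 shares bases with Hdgfrp2 on the opposite strand, which held 527 to 863 reads per library against 21705 to 77310 for Plin4 and was lower with IMC by the same fit (log2 fold change -0.32, SE 0.08, adjusted p = 0.00793). Plin2, Cidec, Fitm2 and Bscl2 also share bases with annotated genes (Gm12551, Gm52871, 2310001K24Rik and Gng3) that were not listed. Whether reads were assigned by strand was not given in the sources used here.

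The promoters of 4 perilipin genes are shown because 2 of these genes rose (Plin1, Plin4) and 2 did not (Plin2, Plin3), and because the RefSeq promoter table gives a single start for each. Each sequence holds the 250 bases before that start, 5′ to 3′ on the minus strand of GRCm38, and the capitals mark the only match in the 4 to a repeat bound by peroxisome proliferator-activated receptors with their partner retinoid X receptor. The windows are chr7:79732777-79733026 for Plin1, chr17:56109783-56110032 for Plin4, chr4:86670060-86670309 for Plin2 and chr17:56290512-56290761 for Plin3. The RefSeq gene spans given above begin further upstream for Plin1, Plin4 and Plin2, so that 128, 166 and 158 bases of these windows, at their 3′ ends, lie inside the annotated gene, against 0 for Plin3.
Plin1: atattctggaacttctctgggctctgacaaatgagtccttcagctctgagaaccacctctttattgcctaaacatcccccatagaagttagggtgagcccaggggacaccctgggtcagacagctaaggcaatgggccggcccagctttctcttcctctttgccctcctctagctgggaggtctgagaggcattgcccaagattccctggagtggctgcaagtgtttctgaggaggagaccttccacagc
Plin4: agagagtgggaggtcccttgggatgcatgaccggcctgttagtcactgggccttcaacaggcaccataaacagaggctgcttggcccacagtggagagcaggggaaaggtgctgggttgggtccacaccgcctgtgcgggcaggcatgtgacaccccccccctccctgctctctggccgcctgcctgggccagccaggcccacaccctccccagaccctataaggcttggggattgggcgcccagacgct
Plin2: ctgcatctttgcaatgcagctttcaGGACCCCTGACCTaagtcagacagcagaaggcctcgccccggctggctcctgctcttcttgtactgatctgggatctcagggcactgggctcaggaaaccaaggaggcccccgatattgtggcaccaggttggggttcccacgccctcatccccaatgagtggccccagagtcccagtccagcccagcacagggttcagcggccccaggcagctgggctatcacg
Plin3: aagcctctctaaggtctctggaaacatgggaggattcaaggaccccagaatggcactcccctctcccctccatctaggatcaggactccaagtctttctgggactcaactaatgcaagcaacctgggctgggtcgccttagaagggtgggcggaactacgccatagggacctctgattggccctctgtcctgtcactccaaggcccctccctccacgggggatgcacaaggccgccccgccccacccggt
The repeat searched was 2 copies of AGGTCA with 1 base between them, on both strands and with at most 2 mismatches. Across 12 start windows of the 8 genes it was found in 1, that of Plin2, from 225 to 213 bases before the start and read on the strand opposite to the gene. Of all 32851 mouse promoter windows of this length, 3.24% held it. A single AGGTCA was found in 3 of the 12 windows (Plin2, where it lies inside the repeat, and 1 window each of Plin5 and Bscl2) against 14.0% of all windows, and CACGTG in 0 of 12 against 6.02%. These are letter matches in a short window and say nothing of whether a factor was bound in this tissue.

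Plin1, which guards the droplet in resting fat cells and admits lipases once protein kinase A has phosphorylated it, rose 1.79-fold. Its level was 8.54, 9.07, 8.74, 8.85 and 9.22 log2 CPM in the 5 HFD mice and ran from 9.60 through a median of 9.68 to 9.92 in the 6 HFD + IMC mice. The groups did not overlap, and the treated mice lay closer together, with an SD of 0.12 (n = 6) against 0.27 (n = 5). By limma with Benjamini-Hochberg adjustment over all genes, the log2 fold change was 0.84 (SE 0.11, 95% interval 0.61 to 1.07, adjusted p = 9.98e-05).

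Plin4, a perilipin of white fat with a long repeated segment that covers newly formed droplets, had the largest change of the 8, at 2.08-fold. The HFD mice measured 9.93, 10.56, 9.93, 10.01 and 10.78 log2 CPM, so that mice 2 and 5 stood above the other 3. The HFD + IMC mice ran from 11.12 through a median of 11.22 to 11.64, all above the HFD group. The log2 fold change by limma was 1.05 (SE 0.16, 95% interval 0.71 to 1.40, adjusted p = 0.000293), and HFD mice 2 and 5 were also the highest of their group for Plin1, Cidec, Fitm2 and Bscl2.

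Plin5, which ties droplets to mitochondria in heart, muscle and brown fat, rose 1.85-fold from the lowest level of the set. It measured 2.91, 3.34, 3.30, 3.49 and 3.80 log2 CPM in HFD mice and 3.87 to 4.56, with a median of 4.30, in HFD + IMC mice. The groups were 0.07 apart at their nearest mice, the narrowest gap among the genes that separated them. Its log2 fold change by limma was 0.88 (SE 0.15, 95% interval 0.57 to 1.20, adjusted p = 0.000515). As few as 167 reads stood behind a Plin5 value, which by counting alone gives an SD of 0.11 on the log2 scale.

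**Figure D1:**
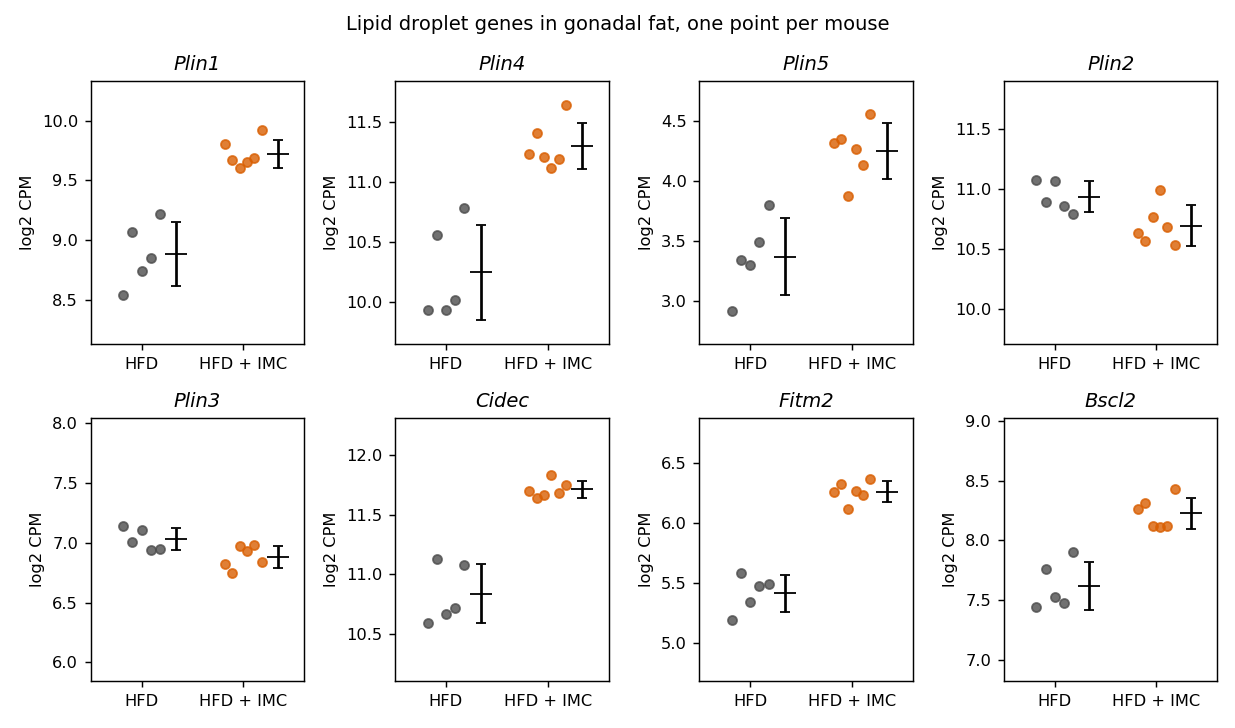
Level of each of the 8 genes (vertical axis, log2 CPM, with the same span in every panel but different limits) in each mouse, by group; points are single mice and bars show the mean ± SD of 5 HFD and 6 HFD + IMC mice. In 6 panels the HFD + IMC mice all sit above the HFD mice, while for Plin2 and Plin3 they overlap and lie lower on average.

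Plin2 (adipophilin), a coat protein that is degraded when it has no droplet to bind, was the member with the most reads per kilobase after Cidec. Its values were 11.08, 10.89, 11.07, 10.86 and 10.79 log2 CPM in HFD mice and 10.53 to 10.99, with a median of 10.65, in HFD + IMC mice. In 5 of 6 HFD + IMC mice Plin2 was below the lowest HFD mouse, and the exception, mouse 4 at 10.99, lay inside the HFD range. By limma the log2 fold change was -0.24 (SE 0.09, 95% interval -0.44 to -0.04, adjusted p = 0.0539), just outside the threshold of 0.05. Without HFD + IMC mouse 4 it was -0.30 (adjusted p = 0.0125), without HFD mouse 5 it was -0.28 (adjusted p = 0.0409), and over all single mice left out it lay between -0.30 and -0.21. It also passed with total-count scaling (-0.27, adjusted p = 0.0264), with voom (adjusted p = 0.0436) and without limma's variance trend (adjusted p = 0.0473). It did not pass in the other 9 of the 11 fits that left out a mouse, where the adjusted p ranged up to 0.128. Nor did it pass with median-of-ratios scaling (adjusted p = 0.0683), an added constant of 2 reads (adjusted p = 0.0540) or a filter at 1 CPM (adjusted p = 0.0530).

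Plin3 (TIP47), which waits in the cytosol and coats droplets as they form, fell by a small margin. It measured 7.14, 7.01, 7.11, 6.94 and 6.95 log2 CPM in HFD mice and 6.75 to 6.98, with a median of 6.88, in HFD + IMC mice. In 4 of 6 HFD + IMC mice it lay below the lowest HFD mouse, and the groups overlapped. The log2 fold change by limma was -0.15 (SE 0.06, 95% interval -0.27 to -0.03, adjusted p = 0.0462). That call was lost in 7 of the 11 fits that left out a mouse (HFD mice 1, 2 and 3, and HFD + IMC mice 1, 2, 4 and 6), where the adjusted p ranged up to 0.117, and also with median-of-ratios scaling (adjusted p = 0.0668) and without limma's variance trend (adjusted p = 0.0661).

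Cidec rose 1.83-fold. Its level was 10.59, 11.13, 10.67, 10.72 and 11.08 log2 CPM in HFD mice and 11.64 to 11.83, with a median of 11.69, in HFD + IMC mice. The treated mice were nearly alike (SD 0.07, n = 6, against 0.25, n = 5), and the nearest mice of the groups were 0.51 apart. The log2 fold change by limma was 0.87 (SE 0.11, 95% interval 0.64 to 1.10, adjusted p = 7.64e-05).

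The droplet-forming genes both rose. Fitm2, which helps triglyceride leave the endoplasmic reticulum membrane in the direction of the cytosol, measured 5.19, 5.58, 5.34, 5.47 and 5.49 log2 CPM in HFD mice and 6.12 to 6.37, with a median of 6.27, in HFD + IMC mice. Its log2 fold change by limma was 0.85 (SE 0.07, 95% interval 0.70 to 1.0, adjusted p = 2.30e-05), which put it at rank 6 of all 12787 genes by p. Its groups were 0.54 apart, the widest gap of the 8 genes.

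Bscl2, whose protein forms the ring at the neck of a growing droplet, measured 7.44, 7.76, 7.53, 7.48 and 7.90 log2 CPM in HFD mice and 8.11 to 8.43, with a median of 8.19, in HFD + IMC mice. It rose by the least of the 6, at 1.52-fold, with the groups 0.21 apart. The log2 fold change by limma was 0.60 (SE 0.09, 95% interval 0.41 to 0.80, adjusted p = 0.000243).

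**Figure D2:**
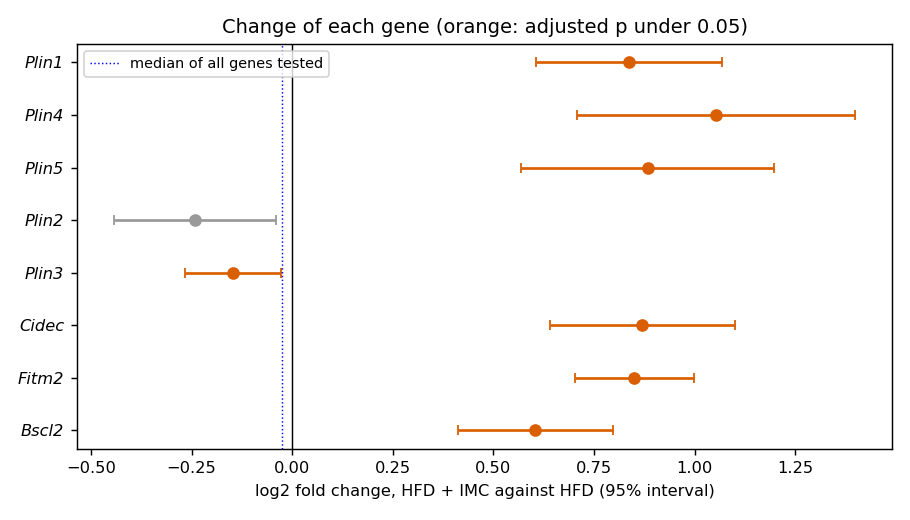
Log2 fold change of each gene (HFD + IMC less HFD, horizontal axis) with its 95% interval from limma, n = 5 and 6 mice; the dotted line marks the median of all genes tested (-0.03). Of the 8 genes, 6 lie between 0.60 and 1.05, Plin3 lies at -0.15 and Plin2, drawn in grey because it did not pass the test, at -0.24.

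Levels can be set side by side between genes only per length, here as log2 CPM per kilobase of annotated exon. That length joins all annotated exons of a gene and need not be that of the transcript made in this tissue. The order, ranks and shares given here and below depend on it. In HFD + IMC mice the order was Cidec (10.90 ± 0.07, SD, n = 6), Plin2 (9.78 ± 0.17), Plin4 (8.77 ± 0.19), Plin1 (7.77 ± 0.12), Bscl2 (7.05 ± 0.13), Plin3 (5.02 ± 0.09), Fitm2 (4.27 ± 0.08) and Plin5 (3.19 ± 0.23), and each neighbouring pair kept this order in all 6 mice. In HFD mice the means fell in the same order, but Cidec (10.03 ± 0.25, SD, n = 5) and Plin2 (10.02 ± 0.13) differed by 0.01 ± 0.36 per mouse, with Cidec above Plin2 in 2 of 5 mice. That pair did not differ beyond its spread in HFD mice, whereas in HFD + IMC mice Cidec exceeded Plin2 by 1.12 ± 0.14 in 6 of 6. The other neighbours kept their order in all 5 HFD mice.

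Cidec and Plin2 were among the most abundant messages of the tissue. By mean level per kilobase over all 11 mice, Cidec ranked 24, Plin2 34, Plin4 114, Plin1 267 and Bscl2 484 of the 12343 genes with an annotated length. Plin3 ranked 1883, Fitm2 4271 and Plin5 6993. Added up without correction for length, the 8 genes took 0.601% ± 0.070 (SD, n = 5) of the reads on listed genes in HFD mice and 0.883% ± 0.044 (SD, n = 6) in HFD + IMC mice, with no overlap.

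The makeup of the perilipin messages shifted from Plin2 to Plin4 and Plin1. Of the summed level per kilobase of the 5 perilipins, Plin2 made up 73.2% ± 5.75 (SD, n = 5; 65.3% to 78.9%) in HFD mice and 55.7% ± 5.08 (SD, n = 6; 48.1% to 62.9%) in HFD + IMC mice. Plin4 went from 15.2% ± 4.26 to 27.8% ± 4.01, and Plin1 from 8.71% ± 1.63 to 13.8% ± 1.29. Plin3 went from 2.53% ± 0.11 to 2.05% ± 0.14. These 4 shares did not overlap between the groups, whereas Plin5, at 0.356% ± 0.083 and 0.583% ± 0.090, overlapped. Shares sum to a whole, so that a rise of some lowers the others, and no test was run on them.

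**Figure D3:**
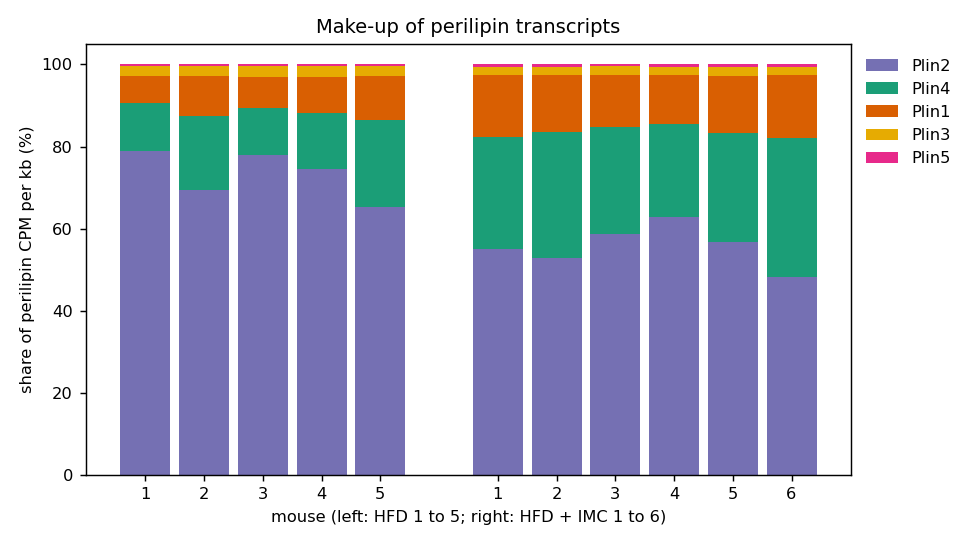
Share of each perilipin in the summed level per kilobase of the 5 perilipin genes (vertical axis, percent), as 1 stacked bar per mouse, with the 5 HFD mice on the left and the 6 HFD + IMC mice on the right. The Plin2 share is at 65.3% or above in every HFD mouse and at 62.9% or below in every HFD + IMC mouse.

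Whether 1 member changed differently from another was tested within each mouse, as the difference in log2 CPM of 2 genes, which does not depend on how libraries were scaled. Of the 28 pairs, 16 passed a two-sided exact permutation test, which used each of the 462 possible splits, at a Benjamini-Hochberg adjusted p below 0.05. Plin2 and Plin3 differed from each of the other 6 genes: all 12 such pairs passed with no overlap between groups, with differences of 0.75 to 1.30 and adjusted p between 0.00505 and 0.00866 by this exact test. Plin2 and Plin3 differed from each other by -0.09 (exact p = 0.177, adjusted p = 0.237), and this pair passed when HFD + IMC mouse 4 was left out (-0.14, exact permutation test, adjusted p = 0.0159). That was 1 of the 11 tests that left out a mouse, and in the others the adjusted p ranged up to 0.40.

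Among the 6 genes that rose, 4 of 15 pairs passed, and each of the 4 held Bscl2. Plin4 rose by 0.45 more than Bscl2 (exact permutation test, adjusted p = 0.00505), Cidec by 0.27 more (adjusted p = 0.0227), Fitm2 by 0.25 more (adjusted p = 0.00866) and Plin1 by 0.23 more (adjusted p = 0.0121). Without HFD mouse 3, the pair of Cidec and Bscl2 no longer passed (0.25, exact permutation test, adjusted p = 0.0583). Plin5 rose by 0.28 more than Bscl2, which missed the threshold (exact permutation test, adjusted p = 0.0642) and passed without HFD mouse 4, HFD mouse 5 or HFD + IMC mouse 3, with adjusted p down to 0.0159. In the other 8 of the 11 tests that left out a mouse it did not pass, with adjusted p up to 0.133. Plin1 rose by 0.22 less than Plin4 (-0.22, exact permutation test, adjusted p = 0.0808), and passed without HFD mouse 5 (-0.27, adjusted p = 0.0444). It passed with no other single mouse left out (adjusted p up to 0.178). Without HFD mouse 5, Plin4 also rose by more than Fitm2 (0.32, exact permutation test, adjusted p = 0.0491). With all mice that pair did not pass (0.20, exact permutation test, adjusted p = 0.237), nor with any other single mouse left out (adjusted p up to 0.489).

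**Figure D4:**
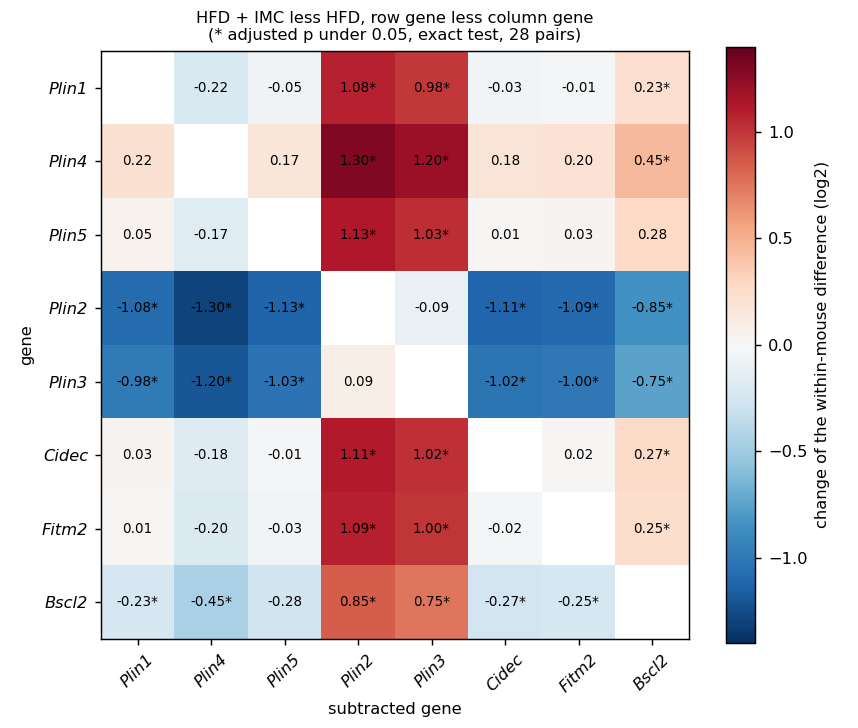
Change of the within-mouse difference between the gene of each row and that of each column (HFD + IMC less HFD, log2 scale, in colour and printed), from 5 and 6 mice; cells with an asterisk passed the exact permutation test after adjustment over the 28 pairs. The rows of Plin2 and Plin3 stand apart from the other 6 genes, with sizes of 0.75 to 1.30.

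Within the groups, the same division ran from mouse to mouse. After each gene was centred on its group mean, Pearson's r over the 11 mice was between 0.54 and 0.96 for every pair of the 6 genes that rose, with Plin4 and Bscl2 at 0.96. Plin2 and Plin3 followed each other (r = 0.74) and ran opposite to the other 6 (r from -0.27 to -0.77). These values are descriptions over 11 libraries that share a scaling, and carry no p.

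For each member the genes most alike in this centred pattern were named by the highest r over the 11 mice. For Plin1 they were Mvk (r = 0.98) and Aldh1l1 (0.97), for Plin4 Pnpla3 (0.99) and Dab2ip (0.97), and for Plin5 G0s2 (0.97) and Zswim7 (0.94). For Cidec they were Dlc1 (0.97) and Klhdc7a (0.97), for Fitm2 Epb4.1l5 (0.96) and Fam89a (0.94), and for Bscl2 Ormdl3 (0.99) and Rasl12 (0.98). For Plin2 they were Stom (0.96) and Ttc17 (0.95), and for Plin3 Slc39a6 (0.99) and Slc29a1 (0.94). These are the highest of the values over all other listed genes, and no test was run on them. The share of genes with r above 0.8 ran from 0.813% for Cidec to 4.52% for Bscl2. G0s2, the inhibitor of the first triglyceride lipase, rose by 1.01 on the log2 scale (SE 0.14, adjusted p = 0.000172 by limma).

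Markers of other cells moved between the same groups, and in bulk tissue fewer cells of a type and less RNA per cell cannot be told apart. Of 10 adipocyte markers, all listed, 8 were higher and 0 lower by limma, with a median log2 fold change of 0.89, led by Lep (1.04), Slc2a4 (1.26) and Adipoq (1.18), and their summed level was 25302 to 28546 CPM in HFD and 33744 to 39348 CPM in HFD + IMC mice. Of 14 macrophage markers, all listed, 12 were lower and 0 higher, with a median of -0.63, led by Cd9 (-0.70), Trem2 (-0.79) and Cd14 (-0.56), and a summed level of 15991 to 20917 CPM against 8617 to 13154 CPM. By the same fit 20% of all genes were higher and 21% lower. After centring on the group means, r with the mean of the macrophage markers over the 11 mice was 0.79 for Plin2 and 0.80 for Plin3, and below 0 for the other 6 members. With the mean of the adipocyte markers r was -0.72 for Plin2 and -0.59 for Plin3, and between 0.34 and 0.74 for the other 6. What lies behind these values was not tested.

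The level of each member was also set against the mean log2 CPM of the 10 adipocyte markers in the same mouse. On that scale Plin2 changed by -1.12 (exact permutation test, p = 0.00433) and Plin3 by -1.02 (exact permutation test, p = 0.00216, the smallest that 462 splits allow), and in both the groups did not overlap. Plin1 (-0.04, p = 0.736), Plin4 (0.18, p = 0.177), Plin5 (0.01, p = 0.961), Cidec (-0.01, p = 0.961) and Fitm2 (-0.03, p = 0.823) moved with the markers within the spread between mice by the same exact test. Bscl2 changed by -0.27 (exact permutation test, p = 0.0281), a call that was lost without HFD mouse 3 (-0.22, p = 0.0524) and when Cfd, Lep and Retn were left out of the markers (-0.13, p = 0.190). These p-values are from 8 comparisons, each repeated in 14 alternatives from which the values below were taken, and none of them is adjusted. Against Adipoq alone, Plin1 (-0.34, p = 0.00866), Cidec (-0.31, p = 0.0433) and Bscl2 (-0.57, p = 0.00216) were lower by the exact test. Fitm2 (-0.33) and Plin5 (-0.30) changed by similar amounts against Adipoq but did not pass. Against the mean of the 10 markers, Plin4 passed upward without HFD mouse 5 (0.26, exact permutation test, p = 0.0476). With Cfd, Lep and Retn left out of that mean, Plin4 passed upward over all mice (0.32, exact permutation test, p = 0.0411).

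The remaining markers of the tissue were as follows. Of 7 mast cell and lymphocyte markers, 4 were listed and 4 lower (median -1.38; Cma1 -1.56, Cpa3 -1.42, Mcpt4 -1.34), with Cd3e, Cd79a and Ms4a1 not listed, and a sum of 331 to 745 CPM against 111 to 209 CPM. Of 7 progenitor and fibroblast markers 4 were lower and 0 higher (median -0.32; Pi16 -0.69, Col1a1 -0.37, Lum -0.32), and of 4 listed mesothelial markers among 5, 1 was lower (Wt1, -0.57; median -0.43), both lists with overlapping sums (8647 to 11146 against 6665 to 8831 CPM, and 196 to 274 against 92.3 to 221 CPM). Of 6 endothelial markers 1 was higher (Cdh5, 0.41), with a median of 0.16, and the sums overlapped at 394 to 552 and 450 to 636 CPM. Over all genes tested by limma, 20% were higher and 21% lower. The single endothelial and mesothelial calls were near these shares.

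Muscle and thermogenic messages were low in both groups. Of 10 skeletal muscle markers 2 were listed and both were higher (Myh2, 3.02, and Acta1, 1.23; median 2.13), with a sum of 12.2 to 17.4 CPM against 29.8 to 55.7 CPM. Of 8 brown and beige adipocyte markers 5 were listed and 2 were higher, Prdm16 (0.79) and Cidea (1.15), with Ucp1, Zic1 and Cpt1b not listed, a median of 0.43 and a sum of 14.8 to 19.97 CPM against 20.4 to 30.7 CPM. None of 5 epididymis markers was listed. For comparison, 20% of all genes were higher and 21% lower. The part of these cell types in the change of any member was not tested beyond the adipocyte-relative values above.

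The other genes of the droplet were divided in direction. Of 22 other lipid droplet proteins, 19 were listed, of which 8 were higher, 6 lower and 5 did not pass by limma, with a median log2 fold change of 0.05. Over all genes the shares were 20% higher and 21% lower. Higher with the smallest p were Cav1 (0.82, SE 0.10) and Ptrf (0.62, SE 0.08), whose proteins build the caveolae of the fat cell surface and reach droplets from there, and Mettl7b (0.94, SE 0.16). Hilpda, an inhibitor of triglyceride lipase that is induced by low oxygen and was named after its value was seen, was lower (-0.33, SE 0.10, adjusted p = 0.0199 by limma). It ranked 13 of the 19 by p, and most of the other lower genes of the list had a smaller p. Cidea, the relative of Cidec found in brown fat, was higher at a far lower level, at 0.90 ± 0.64 (SD, n = 5) and 2.06 ± 0.60 (SD, n = 6) log2 CPM.

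The lists of triglyceride synthesis and of lipolysis, the latter including the lipase inhibitor G0s2, both held mostly higher genes. Of 11 genes of triglyceride synthesis, 10 were higher and 0 lower (median log2 fold change 0.84), among them Gpam (0.89, SE 0.08), the first enzyme of glycerolipid assembly, Gpd1 (0.84, SE 0.09), which makes its glycerol phosphate, and Dgat2 (0.91, SE 0.11), which adds the last fatty acid. Of 11 genes of lipolysis, 11 were higher (median 0.83), among them the glycerol channel Aqp7 (0.91, SE 0.09), the kinase A subunit Prkar2b (0.75, SE 0.08) and the monoglyceride lipase Mgll (0.63, SE 0.08). Both medians are near that of the 8 coat and droplet-forming genes (0.84), and a share of 20% of all genes was higher.

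Of 11 transcriptional regulators of droplet genes, 10 were listed and 7 were higher, with 0 lower and a median log2 fold change of 0.35. The shares over all genes were 20% higher and 21% lower. The smallest p belonged to Srebf1 (0.79, SE 0.10), which drives fatty acid synthesis, Pparg (0.70, SE 0.11), the receptor that directs fat cell formation, and its partner Rxra (0.35, SE 0.06). In all 4 lists (other droplet proteins, synthesis, lipolysis and regulators) the summed CPM was higher with IMC and did not overlap between the groups, for the other droplet proteins at 4013 to 4684 CPM against 5824 to 6675 CPM. A sum is weighted towards abundant genes, which in that list were Cav1 (mean 10.47 log2 CPM in HFD and 11.29 in HFD + IMC mice) and Ptrf (10.46 and 11.08). Of the same list 8 genes were higher and 6 lower, so its sum does not describe the genes as a set.

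**Figure D5:**
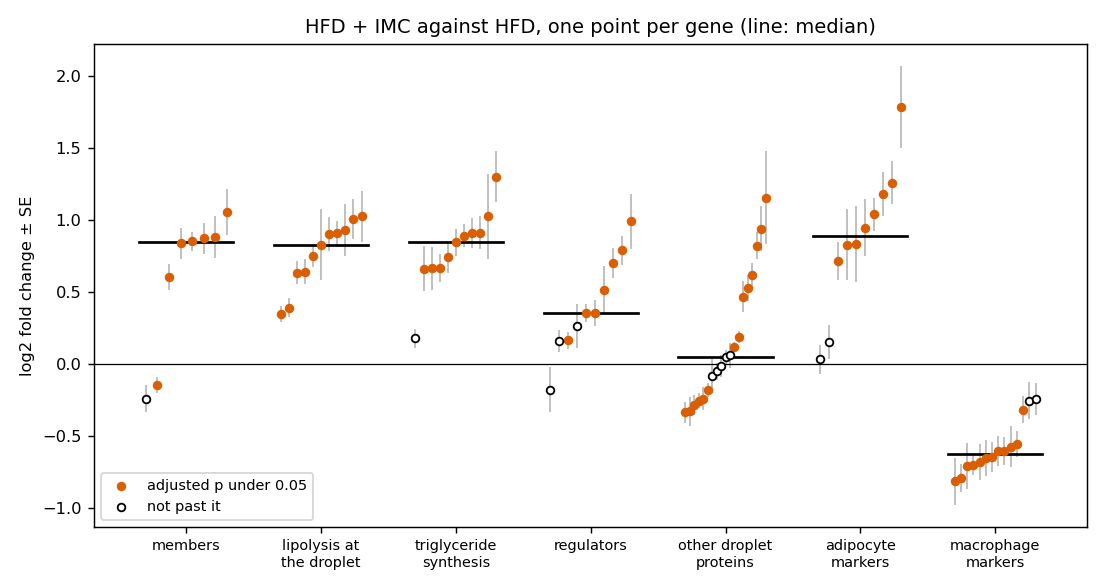
Log2 fold change ± SE (HFD + IMC less HFD, vertical axis) of every listed gene of the members, of the 4 droplet lists and of the adipocyte and macrophage markers, with 1 point per gene, n = 5 and 6 mice; filled points passed limma at an adjusted p below 0.05, open points did not, and the horizontal bar is the median of the list. The medians of the members (0.84), lipolysis (0.83), triglyceride synthesis (0.84) and adipocyte markers (0.89) lie close together, and that of the macrophage markers lies at -0.63.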

How the data were processed

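Directional mRNA libraries of gonadal white adipose tissue from 5 HFD and 6 HFD + IMC mice were sequenced in read pairs. The authors trimmed reads with Trim Galore, checked them with FastQC, aligned and counted them with STAR (mm10, UCSC transcripts), removed transcripts that stayed below 1 CPM in every sample, and scaled libraries by the upper quartile in edgeR. The deposited values are log2 CPM per gene and mouse. The numbers of transcripts that the paper gives for its filter do not leave the 12787 genes found in the deposited table. The authors' own fold changes (log2), mean levels (log2), likelihood ratio scores and p-values (PValue, FDR) stand in the same deposited table and were not used.

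Groups were taken from the treatment label. The log2 CPM of all 12787 genes were fitted with limma 3.58.1 (R 4.3.3, trended eBayes), with Benjamini-Hochberg adjustment and a threshold of 0.05. The method stated by the authors, edgeR on counts, was not used as the main test because the table holds log2 CPM. For pairs of genes and adipocyte-relative levels, exact permutation tests (two-sided) went through 462 splits, which allow p down to 0.00216. Read counts were recovered from the steps between CPM values (100% of values whole within 0.05 reads, over an added constant of about 0.25 reads) and gave 22320022 to 23635249 reads on listed genes in HFD and 22619505 to 25155366 in HFD + IMC mice. They served for depth and for the alternatives (total-count and median-of-ratios scaling, an added constant of 2 reads, voom), beside fits without the trend, a filter at 1 CPM and each mouse left out. Lengths came from GENCODE exons and promoters from RefSeq (GRCm38.p6).

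All 8 genes and their lists were chosen with earlier results of these data known. Named genes were the members, the 3 genes of each list with the smallest p, and the 2 genes most alike in pattern to each member. Hilpda, outside this rule, was named after its value was seen. The fit was tested on simulated data.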

Additional observations from a re-analysis of the deposited data

How the results depend on the processing

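The 6 genes that rose kept their call in 17 of 17 alternatives each, and the number of members called higher was 6 throughout. The Plin2 call was gained with total-count scaling (-0.27, adjusted p = 0.0264), without the trend (-0.24, adjusted p = 0.0473) and with voom (-0.24, adjusted p = 0.0436), all by limma. Plin3 was no longer called with median-of-ratios scaling (-0.14, adjusted p = 0.0668) or without the trend (-0.15, adjusted p = 0.0661), and lay between -0.17 and -0.12 with single mice left out (Plin2, -0.30 to -0.21). The number of members called lower was 2 with total-count scaling, 0 with median-of-ratios scaling, 2 with voom, 0 when only groups with no overlap were counted, and 0 to 2 with single mice left out. The cause of these changes was not tested. Scaling moved the median of all genes from -0.03 to -0.06 (total count) or -0.02 (median of ratios).

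Against adipocyte markers, Plin2 and Plin3 kept their call in 14 of 14 alternatives. With Adipoq alone, Plin1 was -0.34 and Cidec -0.31, now past the threshold, and Bscl2 was -0.57, while Plin4 (-0.12) and Plin5 (-0.30) turned negative. Fitm2 was -0.33 in that setting and did not pass. Without Cfd, Lep and Retn, Plin1 (0.11), Cidec (0.14) and Fitm2 (0.12) turned positive, Plin4 passed at 0.32 and Bscl2 no longer passed at -0.13. With single mice left out the ranges were -0.089 to 0.0021 for Plin1, 0.12 to 0.26 for Plin4, -0.089 to 0.092 for Plin5, -0.094 to 0.042 for Cidec, -0.093 to 0.031 for Fitm2 and -0.33 to -0.22 for Bscl2.

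With single mice left out, 15 to 19 pairs passed. The pairs that changed sign, each of which passed in no setting, were Plin5 less Cidec (-0.067 to 0.079), Plin5 less Fitm2 (-0.024 to 0.12), Plin1 less Plin5 (-0.098 to 0.0074), Plin1 less Fitm2 (-0.044 to 0.052), Plin1 less Cidec (-0.065 to 0.0048) and Cidec less Fitm2 (-0.023 to 0.062). The 8 counts over the pathway lists stayed within 1.5 times their value in all alternatives run. No pairing of mice was given in the sources used here, and no paired analysis was run. The library numbers of the groups do not overlap, so that any effect of library order cannot be told apart from treatment. With 167 to 90454 reads behind a member's value, depth limits Plin5 most.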
